A study of Homo sapiens with 9 samples.

Results

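The interferon-stimulated genes described here are 42 listed genes, most of which cells switch on when interferon is sensed. Among them are members of the OAS, IFIT, IFITM, MX, GBP, IFI and IRF families. A gene was measured where a probe set carried its symbol and no other, and the brightest such probe set stood for it. This gave 41 of the 42 genes, among 22109 genes tested. STAT2 was not analysed here.

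The arrays came from MDA-MB-231, an established human breast cancer line taken from a pleural effusion and grown in medium with serum. YM-155 (sepantronium bromide) is a small molecule developed to suppress survivin, an inhibitor of apoptosis. Total RNA was measured on 9 whole-transcript arrays, 3 for each group: cells without treatment, cells given YM-155 stepwise to a total of 83 ng/ml and harvested at 8 h, and cells given 14.6 ng/ml, its LC50, for 20 h. Concentration, schedule and time differed together between the treated groups, and neither a vehicle nor a time was stated for the controls. No interferon was among the stated treatments. The labels do not say that replicates were separate cultures, so p-values measure only how far these samples spread, and that spread may be technical. Levels below are log2 RMA values, a background-corrected and normalised summary of each probe set, and differences are in log2 units, so that 1 unit is 2-fold. A gene was called higher or lower when its Benjamini-Hochberg adjusted p over all genes (limma) was under 0.05.

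Type I and III interferons bind cell surface receptors, whose kinases JAK1 and TYK2 activate STAT proteins. These join IRF9 and bind the interferon-stimulated response element in promoters, whereas type II interferon acts mainly at the gamma-activated site. The induced proteins sense foreign RNA, degrade RNA, deplete nucleotides, block viral entry or attach the ubiquitin-like ISG15 to other proteins, and several of them feed back on the pathway. Many carcinoma lines express some of these genes without added interferon. SOCS1 and SOCS3 restrain the kinases, and IRF1 and IRF7 drive, and IRF2 can oppose, transcription from the shared elements.

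Promoter windows show the elements that the set shares. RefSeq promoters of GRCh38.p14, each from 250 bases before to 50 bases after an annotated start (300 bases), were matched by symbol for 31 of the 41 genes, with 42 windows. They were searched on both strands for the core of the response element, GAAANNGAAA, and for the core of the gamma-activated site, TTCNNNGAA. The response element core was in 26 of the 42 windows (61.9%), against 3.57% of all 35116 windows of that length, and the gamma-activated core in 12 (28.6%), against 7.66%. Both cores shared bases in 5 of the 42 windows and in 22 of all windows. By gene, 22 of 31 had the response element core in at least 1 window, namely 5 of 6 genes that rose at 20 h, 9 of 14 that fell and 8 of 11 that were not called. The 7 windows below are shown because they belong to genes that moved in different directions. They run 5′ to 3′ on the strand of the gene, and capitals mark the response element cores on either strand.
IFIT5, which fell, chr10:89414318-89414617, plus strand: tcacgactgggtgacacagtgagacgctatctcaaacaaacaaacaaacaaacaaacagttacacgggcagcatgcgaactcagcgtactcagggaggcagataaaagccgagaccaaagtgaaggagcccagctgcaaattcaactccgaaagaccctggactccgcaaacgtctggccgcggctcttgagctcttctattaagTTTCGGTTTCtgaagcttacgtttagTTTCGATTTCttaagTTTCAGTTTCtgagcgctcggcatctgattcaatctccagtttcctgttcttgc
OAS3, which fell, chr12:112938224-112938523, plus strand: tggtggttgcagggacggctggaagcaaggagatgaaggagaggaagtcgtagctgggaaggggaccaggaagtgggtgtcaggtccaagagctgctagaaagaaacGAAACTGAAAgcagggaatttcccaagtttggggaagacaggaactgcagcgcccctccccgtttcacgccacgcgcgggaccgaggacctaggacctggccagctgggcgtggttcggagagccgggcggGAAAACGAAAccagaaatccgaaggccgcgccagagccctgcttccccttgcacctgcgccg
PARP9, which fell, chr3:122564251-122564550, minus strand: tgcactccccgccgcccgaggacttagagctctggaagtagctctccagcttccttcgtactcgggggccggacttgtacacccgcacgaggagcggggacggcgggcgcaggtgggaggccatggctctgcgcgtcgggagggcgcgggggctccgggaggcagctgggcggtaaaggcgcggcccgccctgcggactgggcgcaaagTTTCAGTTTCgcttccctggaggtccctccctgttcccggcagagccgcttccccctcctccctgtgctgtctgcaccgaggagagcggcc
SAMHD1, which fell, chr20:36951659-36951958, minus strand: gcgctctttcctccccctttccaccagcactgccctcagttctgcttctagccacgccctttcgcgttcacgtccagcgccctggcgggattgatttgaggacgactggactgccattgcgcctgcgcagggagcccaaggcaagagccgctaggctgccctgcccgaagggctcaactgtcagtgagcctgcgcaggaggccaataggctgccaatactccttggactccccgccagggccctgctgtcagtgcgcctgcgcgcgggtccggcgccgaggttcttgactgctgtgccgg
IFI6, which rose at 20 h, chr1:27672143-27672442, minus strand: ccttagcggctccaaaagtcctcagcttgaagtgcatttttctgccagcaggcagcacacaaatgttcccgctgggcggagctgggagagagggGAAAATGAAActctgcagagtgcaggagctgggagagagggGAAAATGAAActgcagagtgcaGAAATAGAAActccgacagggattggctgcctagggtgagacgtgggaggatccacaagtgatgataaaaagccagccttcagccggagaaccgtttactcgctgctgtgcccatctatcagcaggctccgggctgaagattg
ISG15, which rose at 20 h, chr1:1013247-1013546, plus strand: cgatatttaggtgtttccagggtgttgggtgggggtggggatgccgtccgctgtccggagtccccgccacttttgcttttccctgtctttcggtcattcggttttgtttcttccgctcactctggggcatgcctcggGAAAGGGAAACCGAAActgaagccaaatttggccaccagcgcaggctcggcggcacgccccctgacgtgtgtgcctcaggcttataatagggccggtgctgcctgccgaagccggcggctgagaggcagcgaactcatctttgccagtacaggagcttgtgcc
IFI44, which rose at 8 h and 20 h, chr1:78649539-78649838, plus strand: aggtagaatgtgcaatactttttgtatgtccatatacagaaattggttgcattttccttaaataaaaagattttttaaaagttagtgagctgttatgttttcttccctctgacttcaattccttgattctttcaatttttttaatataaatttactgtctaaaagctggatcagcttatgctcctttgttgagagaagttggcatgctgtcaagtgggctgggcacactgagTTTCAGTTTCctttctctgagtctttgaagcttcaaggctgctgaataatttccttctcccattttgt

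IFIT5 and IFI6 had 3 core matches each and moved in opposite directions. OAS3 had 2 matches, and ISG15 had 2 that share bases. SAMHD1, the member that fell most, had none in its window. The PARP9 window overlapped by 137 bases (chr3:122564251-122564387) the window of DTX3L, its neighbour on the other strand. Their single response element core lay at the same position, read as TTTCAGTTTC on the PARP9 strand and as GAAACTGAAA on the DTX3L strand, and both genes fell at 20 h. A match describes letters in a window and is not a measured binding site, and the arrays did not measure binding.

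**Figure D1:**
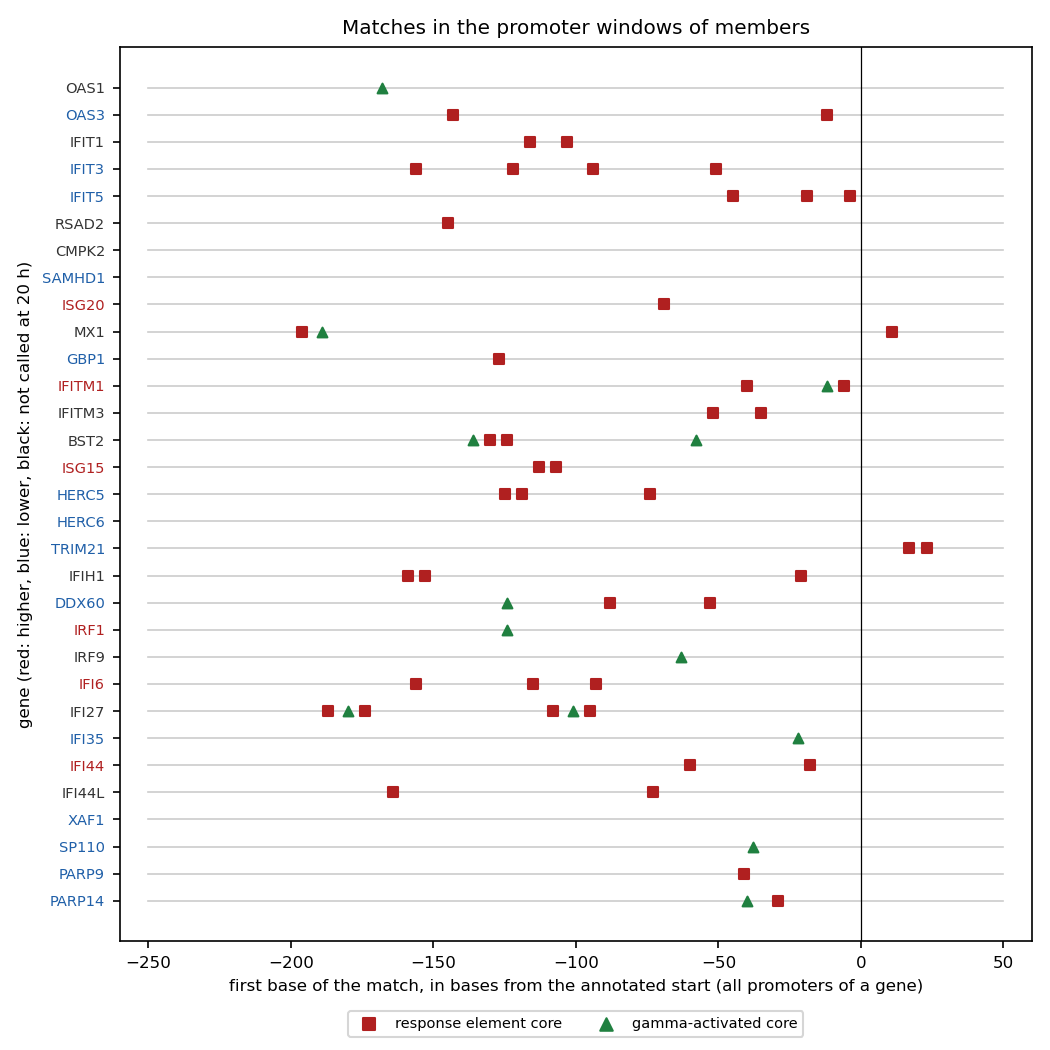
Response element cores (squares) and gamma-activated cores (triangles) in the promoter windows of the 31 matched members, by the distance of the first matching base from the annotated start (horizontal axis, bases; all windows of a gene on 1 line, so that a site in overlapping windows appears once for each). Gene names in red rose at 20 h, names in blue fell and names in black were not called, and squares stand on lines of all 3 colours.

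At 8 h, 3 of the 41 members were higher than in the controls and 7 were lower. Over all genes 5.93% were called higher and 6.28% lower. IFI44, OASL and ISG20 rose, and SAMHD1, IRF2, IFIT5, OAS3, IFITM3, IFIT3 and IFITM2 fell. None of the 10 changed 2-fold, with IFI44 at 1.94-fold the closest. The median difference over the 41 members was -0.0813, beside -0.00305 over all genes. When all arrays were quantile-normalised again, the calls over all genes became 1143 higher and 1868 lower (38% of calls higher, against 48.6% as deposited), and 3 members were higher and 8 lower. The count of lower members at 8 h was 3 to 5 without control replicate 1, 2 or 3 or any array at 8 h. Lower calls over all genes (1388) were then 1411 without control replicate 3 and 820 to 974 without each of the others. The count of higher members was 1 without 8 h replicate 1, where 987 of all genes were called higher (1310 with all arrays).

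At 20 h, 9 members were higher than in the controls and 16 lower, so that 25 of 41 were called. Over all genes 13.1% were called higher and 17.2% lower. ISG15, IFITM1, IFITM2, IRF1, IRF7, IFI6, IFI44, OASL and ISG20 rose. OAS2, OAS3, IFIT3, IFIT5, SAMHD1, GBP1, HERC5, HERC6, TRIM21, DDX60, IRF2, IFI35, XAF1, SP110, PARP9 and PARP14 fell. The fitted fall was at least 2-fold for 5 members (SAMHD1, IFIT5, OAS3, GBP1 and PARP9), where 3.91% of all genes were called and at least 2-fold lower. GBP1 and PARP9 had a dim level at 20 h, and by the mark described below PARP9 was at least 1.25-fold lower. No member was called and at least 2-fold higher, where 2.65% of all genes were, and the largest rise was that of IRF7 (1.97-fold). The middle part of the set, from its lower to its upper quartile, ran from -0.703 to 0.228, with a median of -0.0396 beside 0.0284 over all genes. That median was 0.0221 without control replicate 3. In each of the 25 called members the 3 arrays at 20 h lay all above or all below the 3 controls, as they did in 97.9% of all called genes and in 40.6% of all genes, called or not.

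Between 20 h and 8 h directly, 7 members were higher at 20 h and 15 lower. Over all genes 8.95% were called higher and 13.6% lower. When all arrays were quantile-normalised again, the calls over all genes became 2462 higher and 2571 lower (48.9% of calls higher, against 39.7% as deposited), and 7 members were higher and 14 lower. In all, 27 members (65.9%) were called in at least 1 comparison and 14 in none, beside 36.3% of all genes called in at least 1. Both comparisons with control share the same 3 control arrays, so their calls are not independent of each other.

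**Figure D2:**
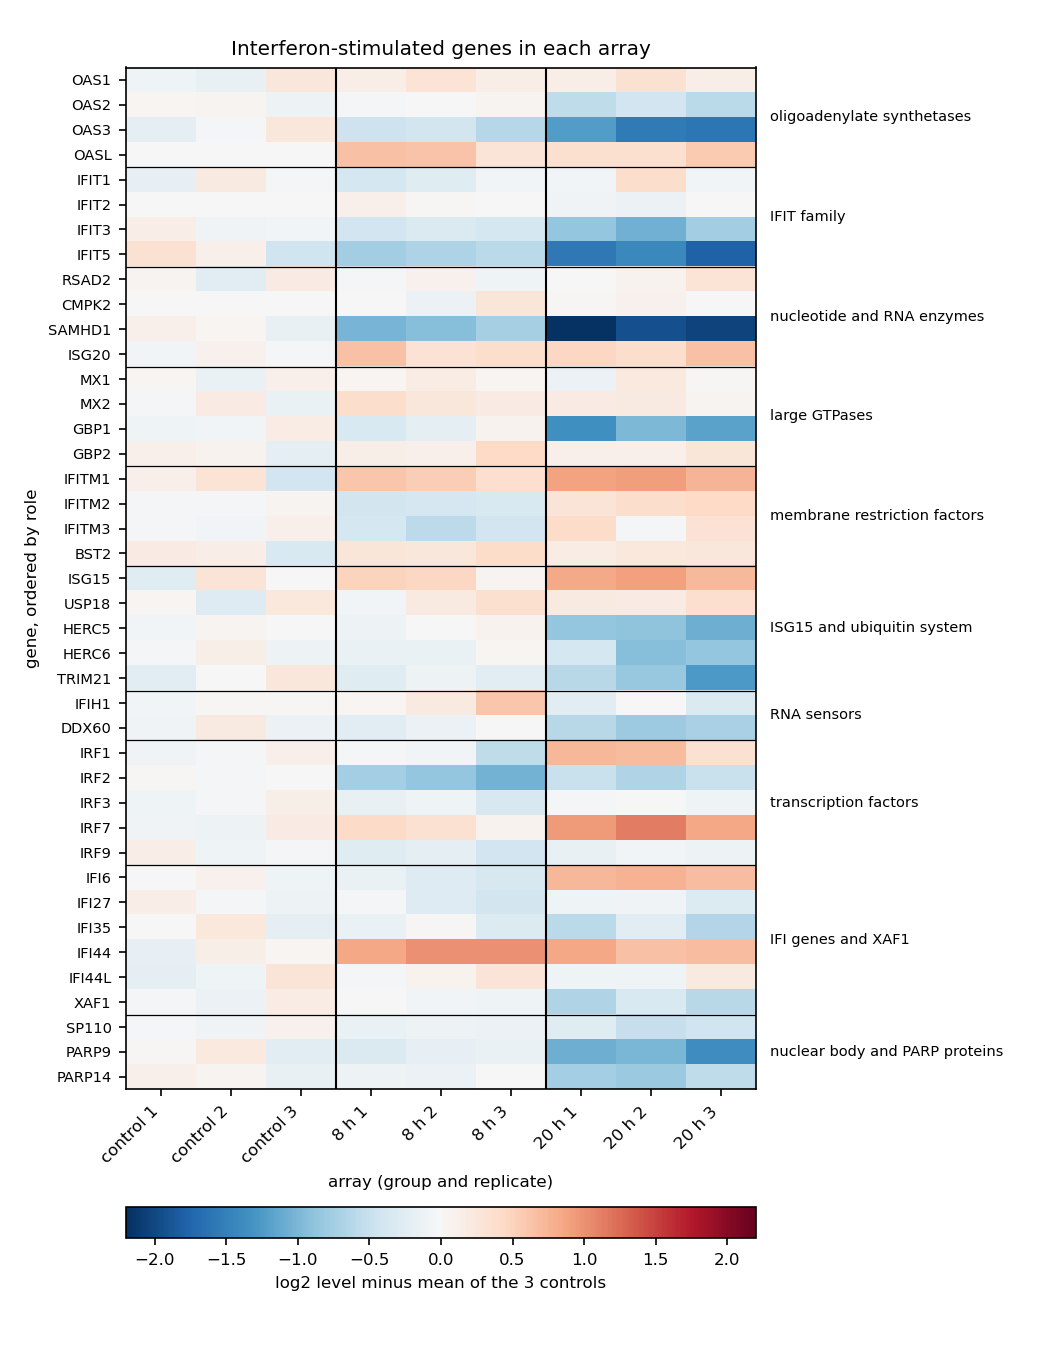
Level of each of the 41 measured members on each of the 9 arrays, as the log2 difference from the mean of the 3 controls (blue below, red above), with genes in rows by role and arrays in columns. The columns at 20 h hold the deepest blue for SAMHD1, IFIT5 and OAS3 and red for IRF7, ISG15, IFITM1 and IFI6, while IFI44 is red in all 6 treated columns.

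Probe sets differ in brightness for the same amount of RNA, so levels were set only against common marks. Of the 41, 33 had a mean over the 9 arrays above the median of all genes (3.89). The same 33 lay above 3.63, the 95th percentile of 354 olfactory receptor genes. Most of those genes were taken to be silent in the line, which was not tested. The 8 below both marks were OAS1, IFIT1, RSAD2, CMPK2, MX2, IFIH1, IFI44L and PARP9. Among them PARP9 fell at 20 h and IFIH1 differed between 20 h and 8 h. The other 6, which include several of the genes most strongly induced by interferon, passed no test in any comparison. How far probe sets at such levels can register a change was not tested. Where the mean of 1 group lay at or below 3.63, a called change is given as at least the ratio of the brighter group's mean to that mark. The fitted difference stands beside it. The mark comes from other probe sets and is only a rough guide to the background of each. Among genes above the median level, 20% were called higher and 31.1% lower at 20 h, and of the 33 members above it 27.3% were higher and 45.5% lower.

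Oligoadenylate synthetases make the short messenger that activates RNase L, which cuts RNA. OAS3 (probe set 16757347), the form most active on long double-stranded RNA, read 5.90, 6.07 and 6.35 in the controls, 5.66, 5.70 and 5.48 at 8 h, and 4.87, 4.56 and 4.53 at 20 h. The 3 groups followed each other without overlap. OAS3 was lower by 0.50 at 8 h (log2 -0.50, SE 0.13, limma adjusted p = 0.0384) and 2.74-fold lower at 20 h (log2 -1.46, SE 0.13, adjusted p = 2.06e-05). The call at 8 h was lost without control replicate 2 or 3, any of the 3 arrays at 8 h or 20 h replicate 2 (-0.54 to -0.38, adjusted p from 0.055 to 0.136). OAS2 stood at 5.71 in the controls and 5.72 at 8 h on average, and was lower at 20 h (-0.52, adjusted p = 0.00081). OASL, a relative without synthetase activity that enhances RIG-I signalling, moved the other way. It read 4.29 to 4.31 in the controls, 4.58 to 4.95 at 8 h and 4.64 to 4.88 at 20 h, rising by 0.52 (adjusted p = 0.0137) and 0.43 (adjusted p = 0.0147). The call at 8 h was lost without 8 h replicate 1 (0.46, adjusted p = 0.0603) or 2 (0.46, adjusted p = 0.0585), and that at 20 h without 20 h replicate 3 (0.35, adjusted p = 0.0584). OAS1, at 3.49 in the controls, differed by 0.20 and 0.21 and was not called.

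IFIT proteins bind foreign RNA, mostly by its 5′ end, and keep it from being translated. IFIT5 (probe set 16707202) read 6.47, 6.25 and 5.71 in the controls, 5.37, 5.47 and 5.55 at 8 h, and 4.57, 4.73 and 4.37 at 20 h. Control replicate 3 was 0.65 below the mean of the other two controls, yet still above every treated array. IFIT5 was lower by 0.68 at 8 h (log2 -0.68, SE 0.17, limma adjusted p = 0.0305) and 3.01-fold lower at 20 h (log2 -1.59, SE 0.17, adjusted p = 6.38e-05). IFIT3 (probe set 16707184), which stabilises IFIT1 on RNA, read 4.76, 4.52 and 4.54 in the controls, 4.19, 4.28 and 4.22 at 8 h, and 3.76, 3.56 and 3.85 at 20 h. Its groups did not overlap either, with differences of -0.38 (adjusted p = 0.0347) and -0.89 (adjusted p = 7.38e-05). At 8 h the calls of IFIT5 and IFIT3 were both lost without control replicate 1 or 2, any of the 3 arrays at 8 h or 20 h replicate 1. The difference was then -0.72 to -0.52 for IFIT5 (adjusted p from 0.0506 to 0.104) and -0.42 to -0.30 for IFIT3 (adjusted p from 0.0506 to 0.117). IFIT1 and IFIT2, at 3.42 and 4.15 in the controls, differed by 0.09 and -0.07 at 20 h and were not called.

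SAMHD1 degrades the nucleotides from which DNA is made and so restricts viruses that copy RNA into DNA. Its probe set (16919022) read 8.91, 8.84 and 8.64 in the controls, 7.77, 7.86 and 8.07 at 8 h, and 6.62, 6.86 and 6.75 at 20 h. No 2 of the 3 groups overlapped. SAMHD1 fell by 0.90 at 8 h (log2 -0.90, SE 0.11, limma adjusted p = 0.000641) and was 4.15-fold lower at 20 h (log2 -2.05, SE 0.11, adjusted p = 6.59e-07), the greatest change of any member. The difference between 20 h and 8 h was -1.15 (adjusted p = 7.04e-05). ISG20, an exonuclease that degrades RNA, rose by 0.45 at 8 h (adjusted p = 0.0228) and 0.49 at 20 h (adjusted p = 0.00558), from 3.65 to 3.81 in the controls to 4.03 to 4.36 and 4.09 to 4.35. Its call at 8 h was lost without control replicate 1 or 3 or 8 h replicate 1 (0.35 to 0.43, adjusted p from 0.0534 to 0.0816). RSAD2, the enzyme viperin, and CMPK2, its neighbour that makes its substrate, stayed between 1.89 and 2.44 and between 2.84 and 3.23 on the 9 arrays and were not called.

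**Figure D3:**
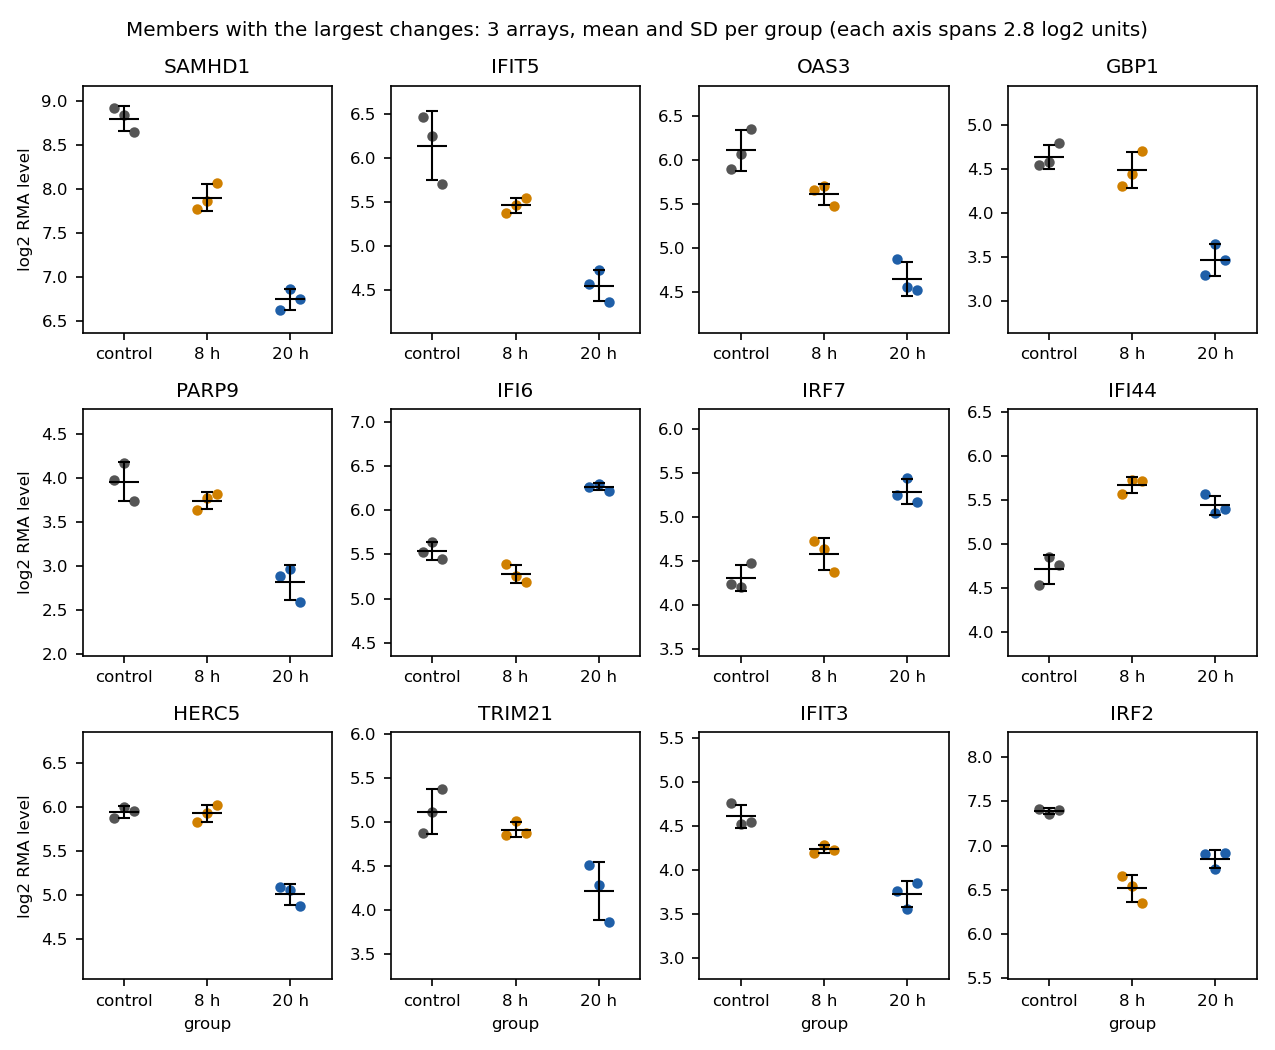
Levels of the 12 members with the greatest changes on each array (points), with the mean and SD of each group of 3 (bars), on log2 axes that each span 2.8 units. SAMHD1, IFIT5, OAS3 and IFIT3 step down from control to 8 h to 20 h, GBP1, PARP9, HERC5 and TRIM21 are called lower at 20 h but not at 8 h, IRF7 and IFI6 are called higher at 20 h but not at 8 h, IFI44 is up at 8 h already, and IRF2 is lowest at 8 h.

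Guanylate-binding and MX proteins are large GTPases that act on pathogen membranes and viral particles. GBP1 (probe set 16689332) read 4.54, 4.57 and 4.79 in the controls, 4.31, 4.44 and 4.71 at 8 h, and 3.29, 3.65 and 3.46 at 20 h. Control and 8 h arrays overlapped, and all arrays at 20 h lay below them. Its mean at 20 h (3.47) lay below the mark of 3.63. GBP1 was at least 2.01-fold lower at 20 h than in the controls (fitted log2 -1.17, SE 0.13, limma adjusted p = 6.98e-05), and at 8 h the difference was -0.15 (adjusted p = 0.561). MX1 and MX2 were not called, at 4.06 and 3.47 in the controls and 4.10 and 3.61 at 20 h. The 2 probe sets of GBP2 differed in call. The brighter one (16689354) was not called, with 0.23 at 8 h and 0.17 at 20 h. The dimmer one (16689352) was higher at 8 h (0.70, adjusted p = 0.0428 over all probe sets with 1 symbol) and lower at 20 h than at 8 h (-0.95, adjusted p = 0.0061).

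IFITM proteins sit in membranes and hinder the fusion of viruses, and BST2 (tetherin) holds budding virus at the cell surface. IFITM1, IFITM2 and IFITM3 are near copies, so their probe sets may share signal. IFITM2 read 8.47, 8.48 and 8.57 in the controls, 8.10, 8.14 and 8.18 at 8 h, and 8.79, 8.88 and 8.94 at 20 h. It thus fell at 8 h (-0.37, SE 0.08, limma adjusted p = 0.0111) and rose at 20 h (0.36, SE 0.08, adjusted p = 0.00407), with a difference between 20 h and 8 h of 0.73 (adjusted p = 0.000113). IFITM2 was the only member called in opposite directions at 8 h and 20 h against control. IFITM3 read 4.53, 4.53 and 4.69, then 4.19, 4.01 and 4.16, then 4.99, 4.55 and 4.89, and was lower at 8 h (-0.46, adjusted p = 0.0294) but not called at 20 h (0.23, adjusted p = 0.184). The call at 8 h was lost without any control or any array at 8 h (-0.50 to -0.41, adjusted p from 0.0604 to 0.107). IFITM1 rose at 20 h by 0.85 (adjusted p = 0.00244), and at 8 h it differed by 0.50 (adjusted p = 0.0764). Control replicate 3 was 0.63 below the mean of the other two controls for IFITM1 and 0.50 below for BST2, which was not called (0.31 and 0.21).

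ISG15 is attached to other proteins by a chain of enzymes that includes the ligase HERC5, and USP18 removes it. ISG15 rose at 20 h, from 4.52, 5.07 and 4.78 in the controls to 5.63, 5.69 and 5.49, a difference of 0.81 (SE 0.15, limma adjusted p = 0.00226). At 8 h the 3 arrays read 5.28, 5.25 and 4.85 and overlapped the controls (0.34, adjusted p = 0.218). HERC5 (probe set 16968765) went the other way, from 5.88, 6.01 and 5.95 in the controls and 5.83, 5.93 and 6.02 at 8 h to 5.09, 5.06 and 4.87 at 20 h. The control and 8 h arrays were interleaved, and the fall at 20 h was 0.93 (log2 -0.93, SE 0.09, adjusted p = 2.67e-05). HERC6, its relative, was lower by 0.73 at 20 h (log2 -0.73, adjusted p = 0.0026). TRIM21 (probe set 16734762), a ubiquitin ligase that recognises antibody in the cytosol, read 4.87, 5.11 and 5.37 in the controls, 4.85, 5.01 and 4.87 at 8 h, and 4.51, 4.28 and 3.86 at 20 h. Its arrays at 20 h ran from 3.86 to 4.51 and stayed below all others (-0.90, SE 0.17, adjusted p = 0.00216). USP18 was not called, with 0.16 at 8 h and 0.25 at 20 h.

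Among the sensors of RNA, DDX60, a helicase that assists RIG-I, was lower at 20 h (-0.70, SE 0.11, limma adjusted p = 0.000636) and differed by -0.13 at 8 h. IFIH1, which encodes the sensor MDA5, was called in neither comparison with control (0.28 and -0.19). Its mean was 3.36 at 20 h, below the mark of 3.63, and 3.83 at 8 h. IFIH1 was called at least 1.15-fold lower at 20 h than at 8 h (fitted log2 -0.47, adjusted p = 0.0374). That call was lost without control replicate 1 or 2, 8 h replicate 2 or 3 or 20 h replicate 1 or 3 (-0.51 to -0.31, adjusted p from 0.0522 to 0.124).

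The interferon regulatory factors split. IRF7 (probe set 16733995), the main driver of type I interferon genes after first exposure, read 4.23, 4.20 and 4.48 in the controls, 4.72, 4.63 and 4.38 at 8 h, and 5.25, 5.44 and 5.16 at 20 h. All arrays at 20 h exceeded all others, and IRF7 was 1.97-fold higher than in the controls (log2 0.98, SE 0.12, limma adjusted p = 0.000135), after 0.27 at 8 h (adjusted p = 0.2). IRF1, an activator of many of these genes, read 5.63, 5.68 and 5.82, then 5.67, 5.65 and 5.15, then 6.44, 6.41 and 6.04, and rose at 20 h by 0.59 (adjusted p = 0.0147). That call was lost without control replicate 1 or 20 h replicate 1 or 2 (0.52 to 0.55, adjusted p from 0.0535 to 0.0586). IRF2 (probe set 16981979), which can repress the same elements, read 7.42, 7.35 and 7.41 in the controls, 6.65, 6.54 and 6.35 at 8 h, and 6.91, 6.73 and 6.91 at 20 h. The 8 h arrays were the lowest, with no overlap between groups, and IRF2 was lower by 0.88 at 8 h (log2 -0.88, SE 0.09, adjusted p = 0.000293) and by 0.54 at 20 h (log2 -0.54, adjusted p = 0.00141). Its rise of 0.34 from 8 h to 20 h (adjusted p = 0.0283) was lost without 8 h replicate 2 or 3 or 20 h replicate 1 or 3 (0.26 to 0.35, adjusted p from 0.0617 to 0.0956). IRF3, which acts before interferon is made, and IRF9, a DNA-binding partner of STAT2, were not called (-0.21 and -0.29 at 8 h, -0.04 and -0.11 at 20 h).

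Genes named for their induction by interferon were mixed as well. IFI44 (probe set 16666509), a cytoplasmic protein of uncertain function, read 4.53, 4.85 and 4.76 in the controls, 5.57, 5.73 and 5.71 at 8 h, and 5.57, 5.36 and 5.40 at 20 h. It was 1.94-fold higher at 8 h (log2 0.95, SE 0.10, limma adjusted p = 0.000299) and 1.65-fold higher at 20 h (log2 0.72, adjusted p = 0.000372), with every treated array above every control. IFI44L, its neighbour in the genome, stayed between 2.94 and 3.42 and was not called. IFI6 (probe set 16684080), a mitochondrial and endoplasmic reticulum protein described as opposing apoptosis, read 5.53, 5.64 and 5.45 in the controls, 5.40, 5.26 and 5.19 at 8 h, and 6.27, 6.31 and 6.23 at 20 h. It was 1.66-fold higher at 20 h than in the controls (log2 0.73, SE 0.09, adjusted p = 0.0001), and at 8 h the difference was -0.26 (adjusted p = 0.085). The distance from 8 h to 20 h was 0.98 (adjusted p = 4.05e-05). XAF1, a partner of the inhibitor of apoptosis XIAP that promotes cell death, fell at 20 h by 0.53 (log2 -0.53, adjusted p = 0.00351). IFI35 was lower at 20 h (-0.49, adjusted p = 0.0277), a call lost without control replicate 1 or 2 or 20 h replicate 1 or 3 (-0.50 to -0.38, adjusted p from 0.0666 to 0.108). IFI27 was not called (-0.24 and -0.16).

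All 3 members of the last group fell at 20 h and none was called at 8 h, where no unadjusted limma p was under 0.05 either. PARP9 (probe set 16958124), which works in a complex with the ubiquitin ligase DTX3L, read 3.97, 4.16 and 3.73 in the controls, 3.63, 3.77 and 3.81 at 8 h, and 2.88, 2.96 and 2.59 at 20 h. The arrays at 20 h lay below all others. Their mean (2.81) was below the mark of 3.63, whereas that of the controls (3.95) lay above both marks. The mean over 9 arrays, which places PARP9 among the 8 dim members, includes the low arrays at 20 h. PARP9 was at least 1.25-fold lower than in the controls (fitted log2 -1.14, SE 0.13, adjusted p = 8.19e-05). PARP14, an ADP-ribosyltransferase, was lower by 0.71 (log2 -0.71, adjusted p = 0.00034), and SP110, a nuclear body protein, by 0.40 (log2 -0.40, adjusted p = 0.00524).

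**Figure D4:**
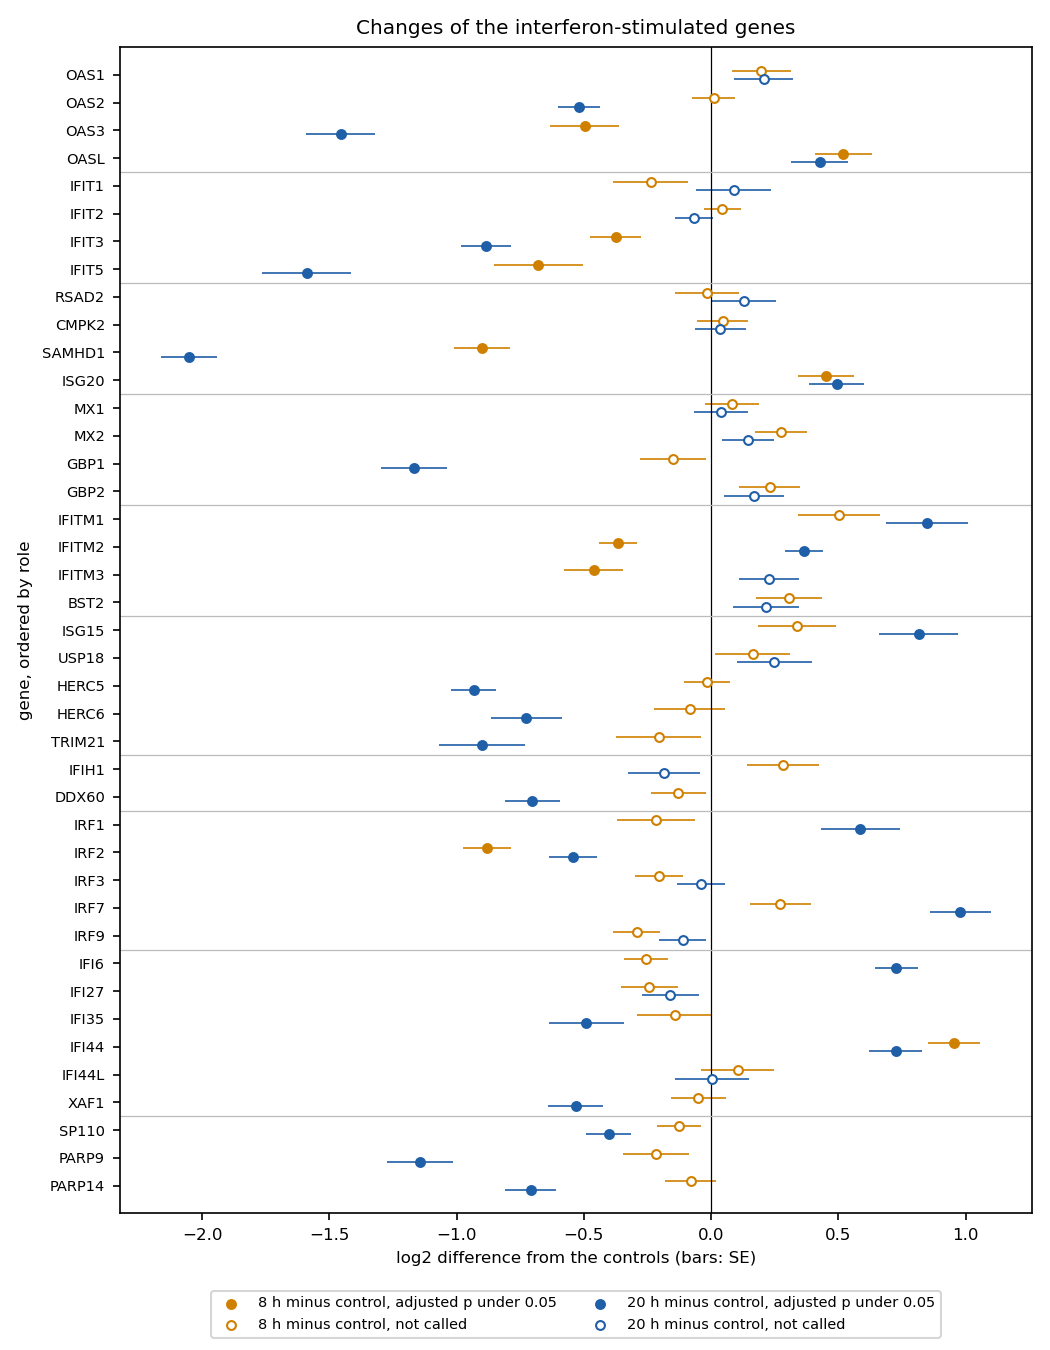
Log2 difference from the controls at 8 h (orange) and 20 h (blue) for each of the 41 measured members, by role, with bars for the SE and filled points for an adjusted p under 0.05. At 20 h 16 filled points lie left of 0 and 9 right of it, and IFITM2 is the member with filled points on both sides.

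Other genes of the pathway, 73 listed and 69 measured, were counted by role. At 20 h 10 were higher (14.5%, beside 13.1% of all genes) and 17 lower (24.6%, beside 17.2%). At 8 h 5 were higher (7.25%, beside 5.93%) and 3 lower (4.35%, beside 6.28%). None of the 10 interferon genes was called in any comparison. At an unadjusted limma p under 0.05 the counts were 0 at 8 h, 0 at 20 h and 1 between 20 h and 8 h. Over all 22109 genes those counts were 5271, 8617 and 7482. All 10 interferon genes had a mean over the 9 arrays below the mark of 3.63. Whether probe sets at such levels can register a change was not tested, so the lack of calls cannot show that these genes were not induced. IFNB1, a type I interferon gene, read 2.37, 2.26 and 2.06 in the controls, 2.66, 2.28 and 2.43 at 8 h, and 2.52, 2.36 and 2.36 at 20 h, which is in the range of the olfactory receptor genes. Of the 6 receptor genes 5 were lower at 20 h (83.3%, beside 17.2% of all genes). IFNAR1, a subunit of the type I receptor, read 7.10, 7.08 and 6.80 in the controls, 6.70, 6.75 and 6.77 at 8 h, and 6.05, 5.88 and 5.88 at 20 h, and was 2.08-fold lower at 20 h (log2 -1.06, limma adjusted p = 2.19e-05). IFNAR2, the other subunit, was lower by 0.42 at 20 h (log2 -0.42, adjusted p = 0.0368), a call lost without control replicate 1 or 2, 8 h replicate 3 or 20 h replicate 1 or 3 (-0.47 to -0.29, adjusted p from 0.0533 to 0.134). Of 3 kinases, JAK2 was lower at 20 h.

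Of the 5 feedback inhibitors SOCS1, SOCS3 and PTPN2 were higher at 20 h (60%, beside 13.1% of all genes). PIAS1 (0.09, limma adjusted p = 0.398) and PTPN6 (0.20, adjusted p = 0.3) were not called. SOCS1 read 2.76, 2.93 and 2.96 in the controls, 2.81, 3.16 and 2.90 at 8 h, and 5.53, 5.21 and 5.39 at 20 h. Control and 8 h arrays overlapped, and their means (2.88 and 2.96) lay below the mark of 3.63. SOCS1 was at least 3.36-fold higher at 20 h than in the controls (fitted log2 2.49, SE 0.12, limma adjusted p = 3.5e-07). SOCS3 read 5.57, 5.57 and 5.79 in the controls, 6.19, 6.25 and 5.92 at 8 h, and 7.15, 7.45 and 7.36 at 20 h, with no overlap between groups. It rose by 0.48 at 8 h (adjusted p = 0.0247) and was 3.20-fold higher at 20 h (log2 1.68, adjusted p = 3.21e-06). The call of SOCS3 at 8 h was lost without control replicate 1 or 2 or 8 h replicate 1 or 2 (0.42 to 0.44, adjusted p from 0.0833 to 0.0943).

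Of 13 genes for nucleic acid sensing and its signalling, 1 was higher at 20 h (7.69%, beside 13.1% of all genes) and 6 were lower (46.2%, beside 17.2%). EIF2AK2, which encodes the RNA-activated kinase PKR, read 8.40, 8.43 and 8.32 in the controls, 7.82, 7.90 and 7.95 at 8 h, and 6.89, 6.79 and 6.52 at 20 h. It stepped down without overlap, by 0.50 at 8 h (log2 -0.50, limma adjusted p = 0.0102) and 3.15-fold at 20 h (log2 -1.65, adjusted p = 1.52e-06). RIGI, the sensor RIG-I, was lower at 20 h (-0.95, adjusted p = 0.00063). TLR3, the endosomal RNA receptor, was at least 1.41-fold lower at 20 h (fitted log2 -0.73, adjusted p = 0.00226). Its mean of 3.39 at 20 h lay below the mark of 3.63. TICAM1, the adaptor of TLR3, was 2.02-fold higher at 20 h (log2 1.01, adjusted p = 0.000591).

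Antigen presentation had 4 of 13 genes higher at 20 h (30.8%, beside 13.1% of all genes) and 4 lower (30.8%, beside 17.2%). HLA-B, HLA-C, HLA-E and HLA-F were the higher ones, with HLA-B 2.64-fold up (limma adjusted p = 0.000158). HLA genes are near copies and their probe sets may share signal, so values for single ones are uncertain. TAP2, which moves peptides into the endoplasmic reticulum, was lower (-0.78, adjusted p = 4.75e-05), as was ERAP1, which trims them (2.00-fold lower, adjusted p = 0.000531). Among 19 other induced genes 2 were higher at 20 h (10.5%, beside 13.1% of all genes) and 1 was lower (5.26%, beside 17.2%). DTX3L, the partner of PARP9, read 6.50, 6.49 and 6.65 in the controls, 6.23, 6.19 and 6.23 at 8 h, and 5.44, 5.28 and 5.25 at 20 h. It was 2.33-fold lower at 20 h (log2 -1.22, adjusted p = 2.62e-06), and its call at 8 h (-0.33, adjusted p = 0.0272) was lost without control replicate 1 or 3 or any array at 8 h (-0.35 to -0.28, adjusted p from 0.0547 to 0.0877). CD274, the checkpoint ligand PD-L1, rose at 8 h (0.73, adjusted p = 0.00194). At 20 h it was 0.37 above the controls (adjusted p = 0.0269), a call lost without control replicate 1 or 2 or 20 h replicate 1 or 3 (0.28 to 0.35, adjusted p from 0.077 to 0.101).

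**Figure D5:**
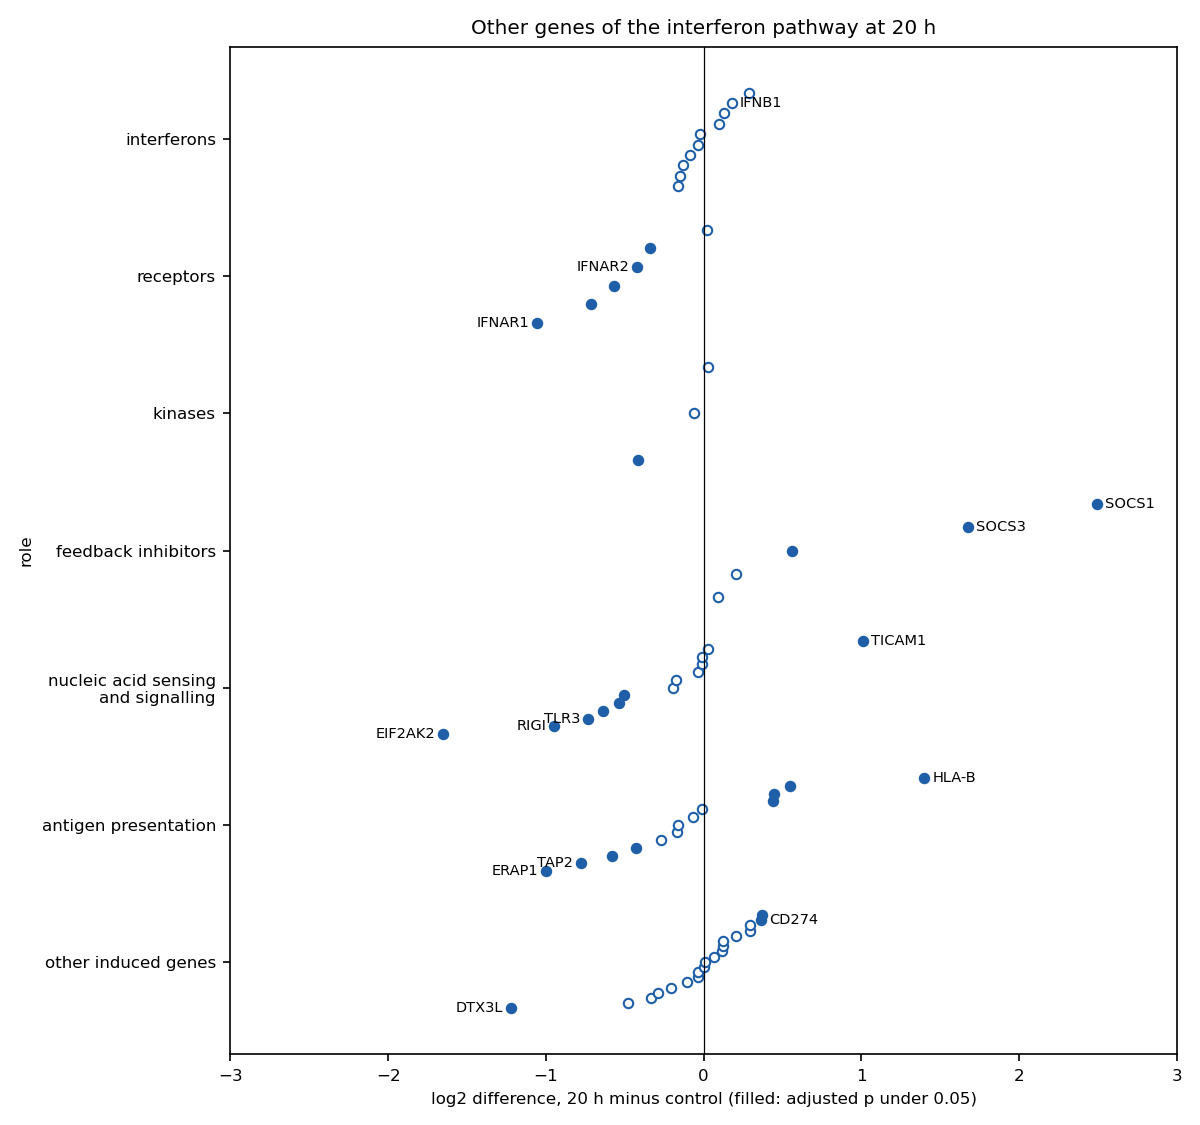
Log2 difference between 20 h and control for the 69 other genes of the pathway, by role, with filled points for an adjusted p under 0.05 and names for genes given in the text. The receptors lie mostly left of 0, SOCS1 and SOCS3 lie farthest right, and no interferon gene has a filled point.

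The labelled line was checked against its markers. VIM, CD44, EGFR, CAV1, AXL and MSN had control means from 8.34 to 10.55 and TGFBI 5.72, while SPARC stood at 3.31. Of the genes listed as absent or low in the line, ESR1 (2.77) and PGR (2.04) were low, and CDH1 (4.40), GATA3 (4.47) and EPCAM (6.16) were above the median of all genes. Leukocytes carry many of the same interferon-stimulated genes. Of 16 leukocyte markers 14 lay at or below the 95th percentile of the olfactory receptor genes, with PTPRC at 1.75 and CD3E at 1.85 in the controls. At 8 h no leukocyte marker was called by limma, and none had an unadjusted p under 0.05. At 20 h 5 markers (CD3D, CD79A, CD14, ITGAM and SPI1) were higher (31.2%, beside 13.1% of all genes) and none was lower. The summed log2 level of the 16 markers ran from 43.7 to 44.5 in the controls, from 44.9 to 46.6 at 8 h and from 46.0 to 48.4 at 20 h. Their part in the changes of the members was not tested. Control replicate 3 stood apart from the other controls, with an SD of the difference of 0.312 and 0.313 over genes above the median level, against 0.187 between control replicates 1 and 2. Without it 10 members were higher and 16 lower at 20 h, and 2 were higher and 5 lower at 8 h. Over all genes 3161 were then higher and 3730 lower at 20 h (2894 and 3810 with all arrays). At 8 h 1512 of all genes were then higher and 1411 lower (1310 and 1388 with all arrays). In bulk RNA, a change in how many cells express a gene and a change in RNA per cell cannot be told apart.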

How the data were processed

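Total RNA of MDA-MB-231 cells was measured on 9 Affymetrix whole-transcript arrays (3 control, 3 at 8 h, 3 at 20 h). Per the submitters' processing notes, the deposited log2 values came from the authors' RMA run in Affymetrix Expression Console. Versions and genome build were not given in the sources used here. RMA shares a model over arrays and compresses changes of dim probe sets. The file held 53617 probe sets, of which 25713 were in the annotation table, 23558 with 1 symbol. Those with several or none were left out. The brightest probe set (mean over 9 arrays) stood for each of 618 symbols with several, giving 22109 genes. Array medians ran from 3.11 to 3.20.

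Group means were fitted to all 9 arrays with lmFit and eBayes in limma 3.58.1 (R 4.3.3), with 6 residual and 4.01 prior degrees of freedom, two-sided, adjusted over all genes. There is no read depth on arrays; 3 per group set the precision. An exact permutation test of 3 against 3 cannot go below 0.1, so none was used.

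The members, lists, tests and alternatives were chosen with earlier results of these data known. Every called member was named, the 12 with the largest changes with all arrays, and the 12 largest called pathway genes with IFNB1, IFNAR1 and IFNAR2. The script was tested on simulated data. The 20 alternatives were 2 filters on dim genes, 2 treatments of probe sets, 2 scalings, the 2 groups alone, array weights, a trended robust variance, replicate numbers as a block, 8 h replicates 1 and 2 as 1, and leaving out each array. Promoter sequences came from RefSeq (GRCh38.p14). Tables and figures used Python 3.11.15, pandas 2.3.3, numpy 2.4.6 and matplotlib 3.10.9.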

Additional observations from a re-analysis of the deposited data

Results flagged for a closer look

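The change at 20 h differed from the change at 8 h, by the direct limma test of 20 h against 8 h, for 22 of the 41 members and 26 of the 69 other pathway genes. Over all 22109 genes it differed for 4991, with 8.95% higher and 13.6% lower at 20 h. The difference of the changes is given for each of the 22 members and, among the other pathway genes, for the 12 chosen by the size of their change and for 4 more that are named above, in log2 units as 20 h minus 8 h. It was -1.15 for SAMHD1, the member with the largest value, -1.02 for GBP1, -0.96 for OAS3 and -0.53 for OAS2. The IFIT genes IFIT5 and IFIT3 had -0.91 and -0.51. HERC5 had -0.92, HERC6 -0.64 and TRIM21 -0.69, while ISG15 had 0.48. PARP9 had -0.93, PARP14 -0.63 and SP110 -0.28. DDX60 and IFIH1 had -0.57 and -0.47, and XAF1 had -0.48. Above 0 were IFI6 with 0.98, IRF1 with 0.80, IRF7 with 0.71, IRF2 with 0.34, IFITM2 with 0.73 and IFITM3 with 0.69. All of these are fitted differences. By the mark of 3.63, GBP1 was at least 1.81-fold, IFIH1 at least 1.15-fold and PARP9 at least 1.08-fold lower at 20 h than at 8 h.

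Of the other pathway genes, SOCS1 had 2.42 and SOCS3 1.20, HLA-B had 0.84 and TICAM1 0.85. EIF2AK2 had -1.16, TLR3 -1.14, RIGI -0.67, DTX3L -0.89, IFNAR1 -0.80, ERAP1 -0.93, TAP2 -0.58 and CD274 -0.36. By the mark of 3.63, SOCS1 was at least 3.36-fold higher and TLR3 at least 1.87-fold lower at 20 h than at 8 h. JAK2 had -0.46 (adjusted p = 0.019), HLA-C 0.31 (adjusted p = 0.0287), HLA-E 0.28 (adjusted p = 0.0456) and HLA-F 0.39 (adjusted p = 0.013). Whether the calls of JAK2, HLA-C, HLA-E and HLA-F hold with 1 array left out was not tested. Leaving out 1 array ended the call of ISG15 (adjusted p up to 0.174), SP110 (0.146), IFIH1 (0.124), CD274 (0.118), IRF2 (0.0956) and TRIM21 (0.0514, without 8 h replicate 2). Concentration and time both differed between these groups.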

How the results depend on the processing

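Over the 20 alternatives, 67 of 86 calls of named genes kept their direction and passed the threshold in every one that tested them. Another 19 were lost in at least 1, and none changed sign. The 86 leave out the calls of JAK2, PTPN2, HLA-C, HLA-E and HLA-F, for which the alternatives were not examined. The counts of called members at 20 h stayed within 1.5 times of those reported. At 8 h the count of higher members (3) was 5 with array weights and 1 to 4 with 1 array left out. The count of lower members at 8 h (7) was 3 with all probe sets tested without collapsing, 3 with 8 h replicates 1 and 2 counted as 1, and 3 to 7 with 1 array left out. Lower calls over all genes at 8 h (1388 of 22109) were 1724 of 53617 without collapsing and 844 with those replicates as 1. They were 820 to 1411 with 1 array left out. Higher calls over all genes at 8 h (1310) were 1781 with array weights and 964 to 1512 with 1 array left out. The cause was not tested. The median of the members at 20 h became 0.00249 with array weights. Deviations of arrays with the same replicate number correlated between -0.318 and 0.111. Arrays with different numbers were not compared in this way, so these values cannot show whether the numbers pair the samples. With the numbers as a replicate block, 4 members were higher and 5 lower at 8 h. The counts were then 9 and 16 at 20 h, and 7 and 15 between 20 h and 8 h. Over all genes this block gave 1133 higher and 1071 lower at 8 h and 2712 and 3619 at 20 h. Between 20 h and 8 h it gave 1747 and 2772. Signal over background limits the 8 dim members, and the number of arrays limits all.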
